A study of Mus musculus with 7 samples.

Results

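The receptors for interleukins and interferons were examined as a set of 36 mouse genes in the open chromatin of HPC7. The genes were chosen by name, with earlier results of these data known. The set was taken from 21938 protein-coding genes of the GENCODE M21 annotation, and all 36 symbols were found in it. HPC7 cells are an established line of mouse blood progenitors that is grown with stem cell factor, and the labels give all 7 libraries, HPC7-1, HPC7-2 and HPC7-4 to HPC7-8, the same cell line, cell type and growth conditions. The study describes the libraries as coming from separate culture batches. The spread between libraries therefore includes culture and library preparation within a single line, and any difference that the labels do not give. The peak names inside the lists carry the prefix VD in HPC7-1, HPC7-2 and HPC7-4 and EtOH in the other libraries, which the labels do not explain, and no comparison was made along it. In bulk ATAC-seq, the Tn5 transposase cuts accessible DNA, and stretches where the cuts pile up are called as open chromatin regions (OCRs). A higher value in bulk chromatin can come from more cells with an open site or from more cuts per cell, and these cannot be told apart.

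Most of these receptors are built from more than 1 chain. A chain that binds the cytokine pairs with a chain that many receptors share, such as gp130 (Il6st) for the IL-6 family, IL-1RAP for the IL-1 family or the common gamma chain for the IL-2 family. Class I and class II chains lack enzyme activity of their own and signal through JAK kinases and STAT transcription factors, whereas the IL-1 family signals through TIR domains and MyD88. Type I interferon binds the IFNAR1 and IFNAR2 chains, and interferon gamma binds IFNGR1 and IFNGR2. In blood progenitors, interferon and IL-1 are known to drive stem cells into cycle, and IL-7, IL-5 and IL-33 receptors are known for lymphoid, eosinophil and mast cell lineages.

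The deposited lists held between 84593 peaks in HPC7-6 and 132852 in HPC7-1. The lowest fold enrichment listed was 1.68 in HPC7-1 and between 2.13 and 2.44 in the other lists, so that weak peaks entered the list of HPC7-1 that could not enter the others. As a check of the cell type, the 8 progenitor markers Kit, Cd34, Tal1, Lmo2, Gata2, Runx1, Lyl1 and Spi1 had a promoter peak in all 7 libraries. Of 8 markers of other cell types, 6 had none in any library (Cd3e, Cd79a, Alb, Krt5, Neurod1 and Myod1), and Cd3d and Col1a1 had 1 in all 7, with mean fold enrichments of 86.4 ± 21.6 and 14.0 ± 2.52 (SD, n = 7).

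Sequences are shown for the sites that stand at either end of what follows, because the receptor promoters differed widely in base composition and because some of the strongest OCRs lay away from any start site. The promoters are the 150 bases before a RefSeq start (GRCm38.p6, read on the gene's strand), and the other windows, printed further on, are the median summit with 50 bases on either side (mm10, plus strand). Capitals mark matches on either strand to words that are known cores of binding motifs. The word for GATA factors was AGATAA and the word for RUNX factors was TGTGGT. For ETS factors such as PU.1 the word was GAGGAAG, and for other members of the ETS family it was CCGGAAG. The STAT word was TTCNNNGAA and the word for interferon regulatory factors (IRF) was GAAANNGAA. The AP-1 word was TGACTCA and the word for the E-box was CACGTG. The ETS words share their last letters, as do the STAT and IRF words, and each word was counted on its own where matches overlapped. The 2 promoters with the highest enrichment, Ifngr1 (chr10:19591799-19591948, +) and Ifnar1 (chr16:91485065-91485214, +), are followed by Il6st (chr13:112463920-112464069, +), which has the most CpG dinucleotides of those shown. Il1rl1 (chr1:40429420-40429569, +) and Il7r (chr15:9529877-9530026, -) were open in all 7 libraries with few CpG, and Il2ra (chr2:11642642-11642791, +) had no promoter peak. The last 4 were added after the values had been seen.
Ifngr1: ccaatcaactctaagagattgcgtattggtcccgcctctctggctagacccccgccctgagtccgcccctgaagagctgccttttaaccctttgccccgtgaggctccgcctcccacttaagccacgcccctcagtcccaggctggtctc
Ifnar1: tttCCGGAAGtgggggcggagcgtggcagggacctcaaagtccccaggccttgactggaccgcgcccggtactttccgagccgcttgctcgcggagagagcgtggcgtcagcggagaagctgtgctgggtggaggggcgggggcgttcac
Il6st: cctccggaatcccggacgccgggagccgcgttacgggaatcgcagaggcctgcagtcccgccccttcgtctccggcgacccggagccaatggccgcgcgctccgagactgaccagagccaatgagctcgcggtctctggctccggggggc
Il1rl1: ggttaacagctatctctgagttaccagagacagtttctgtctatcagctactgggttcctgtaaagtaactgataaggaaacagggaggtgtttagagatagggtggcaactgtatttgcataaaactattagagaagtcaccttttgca
Il7r: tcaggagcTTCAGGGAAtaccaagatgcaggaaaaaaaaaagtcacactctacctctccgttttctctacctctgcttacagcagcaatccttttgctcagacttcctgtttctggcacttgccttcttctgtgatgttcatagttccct
Il2ra: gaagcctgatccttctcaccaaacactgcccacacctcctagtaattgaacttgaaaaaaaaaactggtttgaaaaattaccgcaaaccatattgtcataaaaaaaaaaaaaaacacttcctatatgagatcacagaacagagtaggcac

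In these 150 bases the CpG count was 7 at Ifngr1, 15 at Ifnar1 and 20 at Il6st, against 0 at Il1rl1, 1 at Il7r and 1 at Il2ra. Ifnar1 held an ETS word 4 bases into the stretch, Il7r held a STAT word at base 9, and none of the 8 words was found in the other promoters shown.

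The question put to the promoters was which of the 36 receptor genes are open in these progenitors. A promoter peak was any peak with at least 1 base within 1 kb of an annotated start of the gene, and 28 of the 36 genes (77.8%) had 1 in all 7 libraries, against 55.9% of all protein-coding genes. Prlr and Il12rb2 had a promoter peak in some libraries, a class that holds 5.91% of protein-coding genes. Il2ra, Il2rb, Lifr, Osmr, Lepr and Tnfrsf1b had none in any library, 16.7% of the set against 38.2% of protein-coding genes. Of the genes of the set, 6 of 6 class II chains, 6 of 6 IL-1 family chains, 5 of 7 chains of the IL-2 family and 5 of 9 of the gp130 and IL-12 family were open in all 7 libraries. These shares were not compared by a test, and they do not hold for chains outside the set. Of the 26 other receptor chains read further on, 13 were open in all 7 libraries. The class II chains Ifnlr1, Il20rb, Il22ra1 and Il22ra2 had no promoter peak in any library, whereas Il20ra was open in all 7 (8.34 ± 2.55). The IL-1 family chains Il1rl2, Il1rapl1 and Il1rapl2 had no promoter peak either, whereas Sigirr was open in all 7 (116 ± 21.0). The summit of the promoter OCR lay within 250 bp of an annotated start in 24 of the 28 genes, at a median distance of 57.5 bp. The same share over all open protein-coding genes is not given here, so this describes the set only.

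The open receptor promoters were weaker than open promoters at large. The fold enrichment, the reads at a summit relative to the background that the peak caller estimated, had a median of 36.5 over the 28 genes, each taken as its mean over 7 libraries, and of 79.8 over all protein-coding genes open in all 7 libraries. Only Ifngr1, Ifnar1 and Pdgfrb lay above that median, and 16 of the 28 lay below the 25th percentile of 45.6. No test was made of this difference between gene sets.

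**Figure D1:**
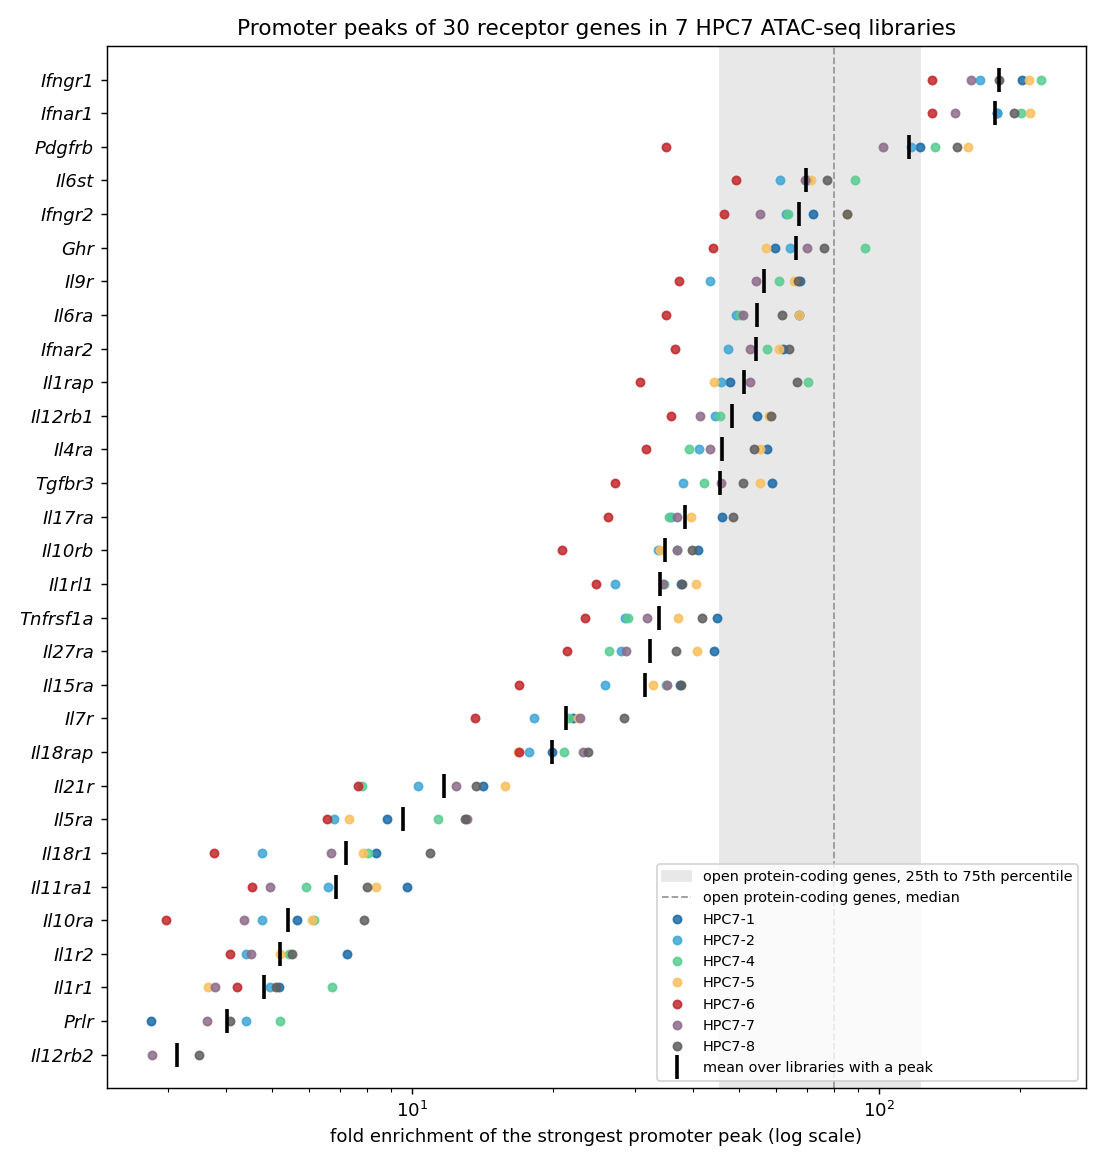
Fold enrichment of the strongest promoter peak (x axis, log scale) of the 30 genes with a promoter peak in any library, ordered by their mean (black bars) with the 28 genes open in all 7 libraries above Prlr and Il12rb2. Each dot is 1 of 7 libraries, and the grey band is the 25th to 75th percentile of open protein-coding genes, 45.6 to 122, with which the dots of Ifngr1 and Ifnar1 do not overlap.

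The class II family spanned nearly the whole order. Ifngr1, the ligand-binding chain for interferon gamma, had the highest promoter of the set, with a lowest value of 130 in HPC7-6, a median of 180 and a highest of 222 in HPC7-4. Its OCR (chr10:19591073-19592978) overlapped coding sequence and UTR of the gene, with a summit 74 bp before the start. Ifnar1, a chain of the type I interferon receptor, came next in the order, at 130 in HPC7-6, a median of 179 and 211 in HPC7-5. Their ranges overlapped, Ifngr1 was the higher in 3 of 7 libraries, and both stood at 130 in HPC7-6. Their means of 181 ± 32.7 and 177 ± 29.5 (SD, n = 7) stood at the 92.8th and 92.1st percentiles of open protein-coding promoters.

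Their partner chains were lower in every library. Ifnar2, the chain that binds JAK1, ranged from 36.5 through a median of 57.4 to 64.1, and Ifnar1 was 3.26 times higher as a geometric mean over libraries (two-sided exact permutation of the signs of the differences in log10 fold enrichment, adjusted p = 0.0156 over 9 pairs, the smallest that 7 libraries allow). Of 16 pairs listed for this test, 7 could not be tested because a chain lacked a promoter peak in some or all libraries. How often other pairs of open promoters reach this p was not computed. The calls therefore describe each pair and not receptor chains as a class. Ifngr2, the signalling partner for interferon gamma, ranged from 46.5 through 63.8 to 85.5, and Ifngr1 was 2.70 times higher (adjusted p = 0.0156, same exact test). The highest value of either lower chain did not reach the lowest of its partner. The summit at Ifngr2 lay 1375 bp before the annotated start, outside the 1 kb window, in an OCR of chr16:91544989-91548387 that reaches over the start. An internal start of Ifngr2 without a coding transcript (chr16:91561323) had a peak in all 7 libraries, at 7.69 ± 2.04 (SD, n = 7). The ratio of 2.70 was not computed with the summit required in the window.

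The IL-10 receptor showed the opposite order, with the shared chain higher. Il10ra, the ligand-binding chain, ranged from 2.97 in HPC7-6 through 5.66 to 7.86 in HPC7-8, near the lower end of the open set. Il10rb, shared by receptors of IL-10, IL-22 and type III interferon, ranged from 21.0 through 36.8 to 41.0. The ratio of Il10ra to Il10rb was 0.153, with Il10rb the higher in each of the 7 libraries (adjusted p = 0.0156, same exact test).

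In the gp130 family the shared chain again had the higher promoter. Il6st, which encodes gp130, ranged from 49.3 through 70.1 to 88.6, with a mean of 69.6 ± 12.3. Il6ra, the IL-6 binding chain, ranged from 34.9 through 51.1 to 67.3, and its ratio to Il6st was 0.778, below 1 in 7 of 7 libraries although the ranges overlapped. Il27ra ranged from 21.4 through 28.7 to 44.2, with a ratio of 0.457, and its OCR also covers coding sequence of the neighbouring Rln3. Il11ra1, the IL-11 binding chain, ranged from 4.54 through 6.61 to 9.73, with a ratio of 0.0968. All 3 ratios had an adjusted p of 0.0156 (exact sign-flip permutation test, n = 7). For Lifr and Osmr, which bind LIF and oncostatin M with gp130, no ratio can be given, since neither had a promoter peak.

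The IL-12 receptor chains differed in where the peaks lay. Il12rb1, shared by the receptors of IL-12 and IL-23, had a mean of 48.4 ± 8.86, but the summit lay about 3 kb inside the gene, 879 bp before an internal start without a coding transcript. At its coding starts (chr8:70808449-70808487) the strongest peak had a fold enrichment of 3.93 to 5.39 in 6 libraries, and of 54.6 in HPC7-1, where a single peak of 5011 bp joined both sites. Il12rb2, its partner in the IL-12 receptor, had a promoter peak in HPC7-7 at 2.77 and in HPC7-8 at 3.50 and in no other library.

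Among the IL-1 family receptors of the set the shared accessory chain had the highest mean, while Sigirr, a family member outside the set, stood at 116 ± 21.0 (SD, n = 7). Il1rap ranged from 30.7 through 47.8 to 70.4, whereas Il1r1, the signalling IL-1 receptor, ranged from 3.65 through 4.96 to 6.74, a ratio of 0.0950. Il1rl1, which encodes ST2, the receptor for IL-33, ranged from 24.7 through 34.7 to 40.5, a ratio to Il1rap of 0.673. Il18r1 ranged from 3.75 through 7.83 to 10.9 and its partner Il18rap from 16.9 through 19.9 to 23.7, a ratio of 0.345. All 3 differences had the same direction in each of the 7 libraries (adjusted p = 0.0156, same exact test). Il1r2, a decoy receptor that binds IL-1 without signalling, had a mean of 5.21 ± 1.06, and Il1r1 had 4.81 ± 1.06 (SD, n = 7).

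**Figure D2:**
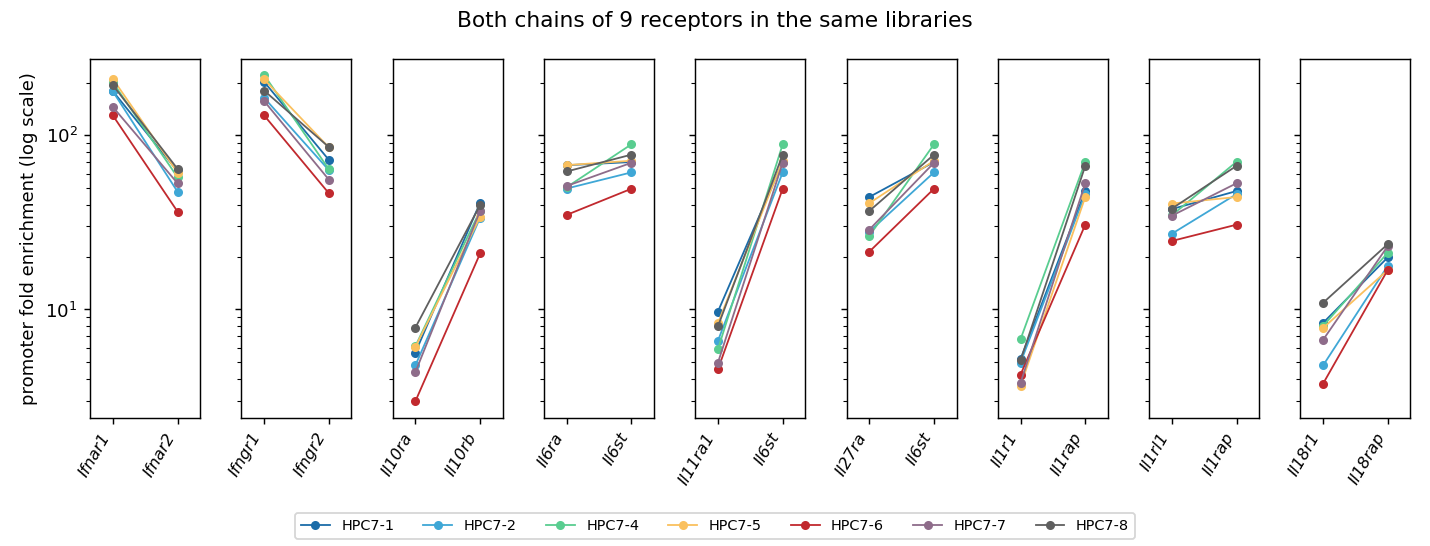
Promoter fold enrichment (y axis, log scale) of both chains in the 9 of 16 listed pairs that could be tested, each line joining the values of the 2 genes in 1 of 7 libraries. All 7 lines of a panel slope the same way, from a ratio of 3.26 at Ifnar1 and Ifnar2 to 0.0950 at Il1r1 and Il1rap.

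In the IL-2 family, the chains for IL-9, IL-4 and IL-15 had the stronger promoters and both IL-2 chains had none. Il9r ranged from 37.2 through 61.1 to 67.6 with a summit 888 bp inside the gene, and Il4ra, the chain for IL-4 and IL-13, had a mean of 46.0 ± 9.76. Il15ra stood at 31.5 ± 7.55, Il7r, the receptor of early lymphoid progenitors, at 21.4 ± 4.55, and Il21r at 11.7 ± 3.19. Il2ra and Il2rb, which with the common gamma chain form the high-affinity IL-2 receptor, had no promoter peak in any list, so Il15ra was open without its partner Il2rb. The common gamma chain Il2rg, outside the set, was open in all 7 libraries at 16.4 ± 4.35. This mean lay below those of Il9r, Il4ra, Il15ra and Il7r and above that of Il21r, so a higher shared chain was not the rule here. Il5ra, which marks the eosinophil lineage and pairs with the common beta chain, stood at 9.56 ± 2.87, whereas Csf2rb, which encodes that beta chain, stood at 44.2 ± 9.53. Of other chains outside the set, Il3ra stood above Csf2rb at 117 ± 22.1 and Csf2ra below it at 13.3 ± 2.74.

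Growth hormone receptor and the members of other families lay at the upper and middle part of the order. Ghr ranged from 44.0 through 64.5 to 93.0, and the related prolactin receptor Prlr had a peak at the last of its 6 groups of starts in 5 libraries, from 2.76 through 4.08 to 5.21, and none in HPC7-5 and HPC7-6. Pdgfrb, a receptor tyrosine kinase known from pericytes and fibroblasts, ranged from 34.9 in HPC7-6 through 122 to 155 in HPC7-5. The summit of its OCR lay 2659 bp after the start (median over libraries), while in HPC7-6 a separate, narrower peak of 2131 bp with its summit near the start was the one that reached the window. With the summit required in the window, Pdgfrb was open in 1 library only, and the count of genes open in all 7 libraries was 27. Tgfbr3, the betaglycan co-receptor, stood at 45.5 ± 10.9, Il17ra, a shared chain for IL-17 cytokines, at 38.4 ± 7.38 and Tnfrsf1a, the widely expressed TNF receptor, at 33.8 ± 7.73. Tnfrsf1b, the other TNF receptor, had no promoter peak.

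The full order cannot be resolved step by step with 7 libraries, since at the smallest p that 7 libraries allow, an adjusted p under 0.05 needs at least 9 of the 27 neighbouring pairs at that p. Of these pairs, which were ordered by the same values, 0 had an adjusted p under 0.05 and 7 had an unadjusted p under 0.05 in the exact permutation of signs, and the lowest adjusted p was 0.105. In 4 pairs the direction held in all 7 libraries, Ifnar1 over Pdgfrb, Tgfbr3 over Il17ra, Il15ra over Il7r and Il18rap over Il21r. HPC7-6 gave the lowest value in 26 of the 28 genes, with a median of 0.666 times the mean of the gene. The differences above were therefore taken within libraries. HPC7-6 was also the lowest library at every signalling partner read further on, such as Tyk2, Myd88 and Stat4, though not at the progenitor marker Runx1. Its low values are thus not particular to the receptor genes, and the share over all open promoters was not computed. The coefficient of variation over libraries ran from 14.4% at Il18rap through a median of 21.5% to 34.4% at Pdgfrb. Without HPC7-6, where the Pdgfrb value comes from a separate peak, Pdgfrb was at 15.1% and the range ran from 8.05% at Il10rb through a median of 16.2% to 27.8% at Il5ra.

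Base composition around the start was measured as the CpG ratio, the observed CpG count over that predicted from the C and G content, in 1000 bases around the start with the highest ratio. Vertebrate promoters fall broadly into CpG-rich ones, often of widely expressed genes, and CpG-poor ones, often of genes restricted to a cell type. Of 22 receptor genes with a ratio under 0.6, 17 (77.3%) were open in all 7 libraries, against 26.0% of the 10410 protein-coding genes with such a ratio. Of the 14 with a ratio of at least 0.6, 11 (78.6%) were open, against 82.9% of 11528 genes. The median ratio of the open receptor promoters was 0.487, against 0.761 for open protein-coding promoters. These shares are descriptions of a chosen list and were not tested.

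The ranges of fold enrichment overlapped at 3 genes of the lower class, and the difference between the classes was not tested. The 11 open genes with a CpG ratio of at least 0.6 had a median fold enrichment of 54.6 and a lowest value of 38.4, at Il17ra, which has the highest ratio among open members, 0.918. The 17 open genes under 0.6 had a median of 21.4 and ran from 4.81 at Il1r1 to 116 at Pdgfrb. Of these, 14 lay below Il17ra, and Il12rb1 (48.4), Il9r (56.6) and Pdgfrb lay above it. The summits of these 3 lay 879 bp, 888 bp and 2659 bp from the nearest start. They were thus outside the 500 bases on either side of a start in which the ratio was measured. Over all open protein-coding genes the medians were 89.6 and 40.3. Il7r had the lowest ratio of the set, 0.141, and yet a peak in all 7 libraries. Lifr had the highest, 0.982, and Osmr 0.688, and neither had a promoter peak.

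**Figure D3:**
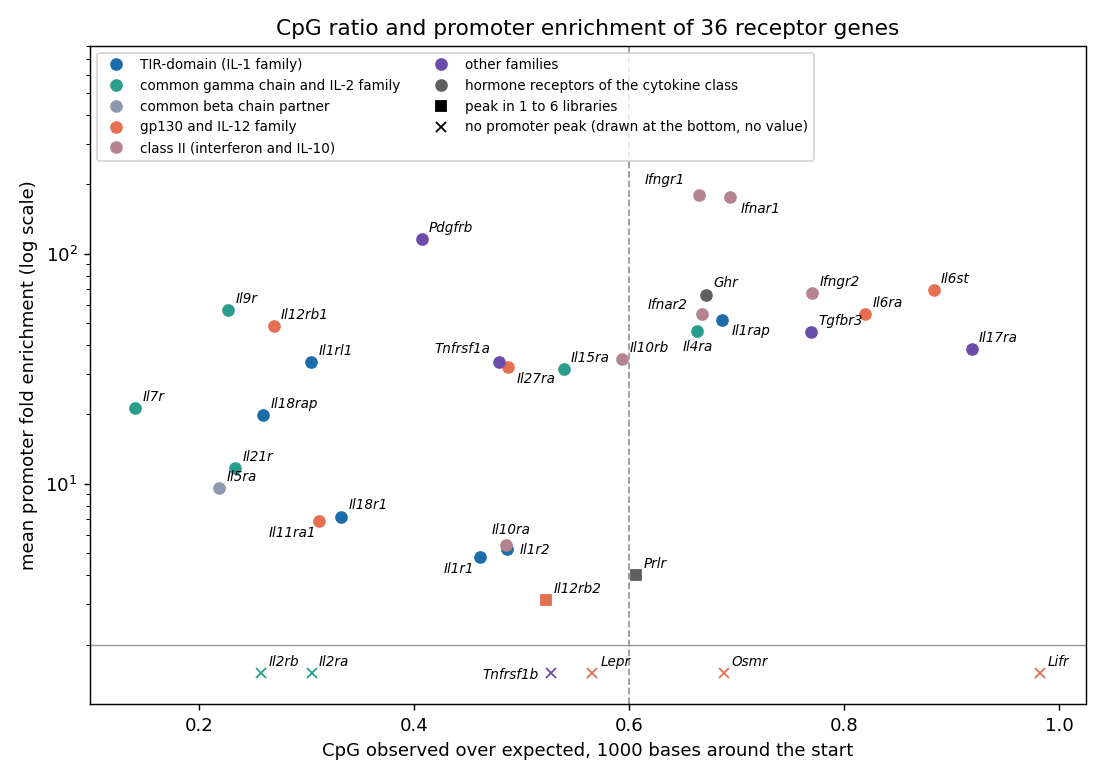
CpG ratio around the start (x axis) against mean promoter fold enrichment over 7 libraries (y axis, log scale) for 36 genes, coloured by receptor family. Crosses under the line are the 6 genes without a promoter peak, squares are Prlr and Il12rb2, and 17 open genes lie left of the dashed line at a ratio of 0.6.

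Many of these genes have more than 1 group of starts, and not every group had a peak. Starts whose 1 kb windows overlap were joined, which left 24 genes with more than 1 group, and in 6 of them at least 2 groups had a peak in all 7 libraries. The same counts over all protein-coding genes are not given here, so these describe the set only. At Il1rl1, the first group (chr1:40429570) stood at 33.9 ± 5.84 and the second (chr1:40436589) at 22.3 ± 4.40, while the third (chr1:40439627-40440628), which holds 3 of the 5 coding transcripts, had a peak in HPC7-1 alone, at 2.95. The first group is the distal promoter, known for its use in mast cells and other blood cells, and its sequence is printed above. At Il1r2 and Il11ra1 the outermost start had no peak and an inner group was open in all 7 libraries. At Il17ra an inner noncoding start stood at 27.1 ± 6.16, and at Tgfbr3 an inner coding start at 7.87 ± 1.82.

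Beyond the promoters, OCRs were counted in the gene body and 20 kb on either side, outside 1 kb of the gene's own starts, after peaks of the 7 libraries had been merged at 1 bp of overlap. The 36 genes had 371 such OCRs, of which 178 (48.0%) were found in all 7 libraries, against 46.2% of all merged OCRs in the genome. Of the 371, 68 were found in a single library, and 45 of these in HPC7-1, the longest list. Of the 178, 66 were intergenic, 63 intronic, 32 overlapped coding sequence, 13 a UTR without coding sequence and 4 a noncoding exon, and 24 lay within 1 kb of the start of some other gene. Neither the placement nor the single-library counts were computed over all merged OCRs, so both describe the set only. A receptor gene had a median of 4 shared OCRs, against 3 for protein-coding genes.

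The counts were highest at Il6ra with 14, Tgfbr3 with 13, and Il11ra1, Il17ra and Il21r with 10 each. Il6ra and Il17ra also stood high per length, with 15.7 and 15.5 shared OCRs per 100 kb of window, the 96.8th and 96.6th percentiles of protein-coding genes. Tgfbr3, whose window spans 223 kb, had 5.83 per 100 kb, the 62.8th percentile. At Il11ra1, 6 of the 10 lay within 1 kb of starts of its neighbours. Lepr, the leptin receptor, had no OCR in any library within a window of 138 kb, and the nearest shared OCR was 52.7 kb from its closest start.

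**Figure D4:**
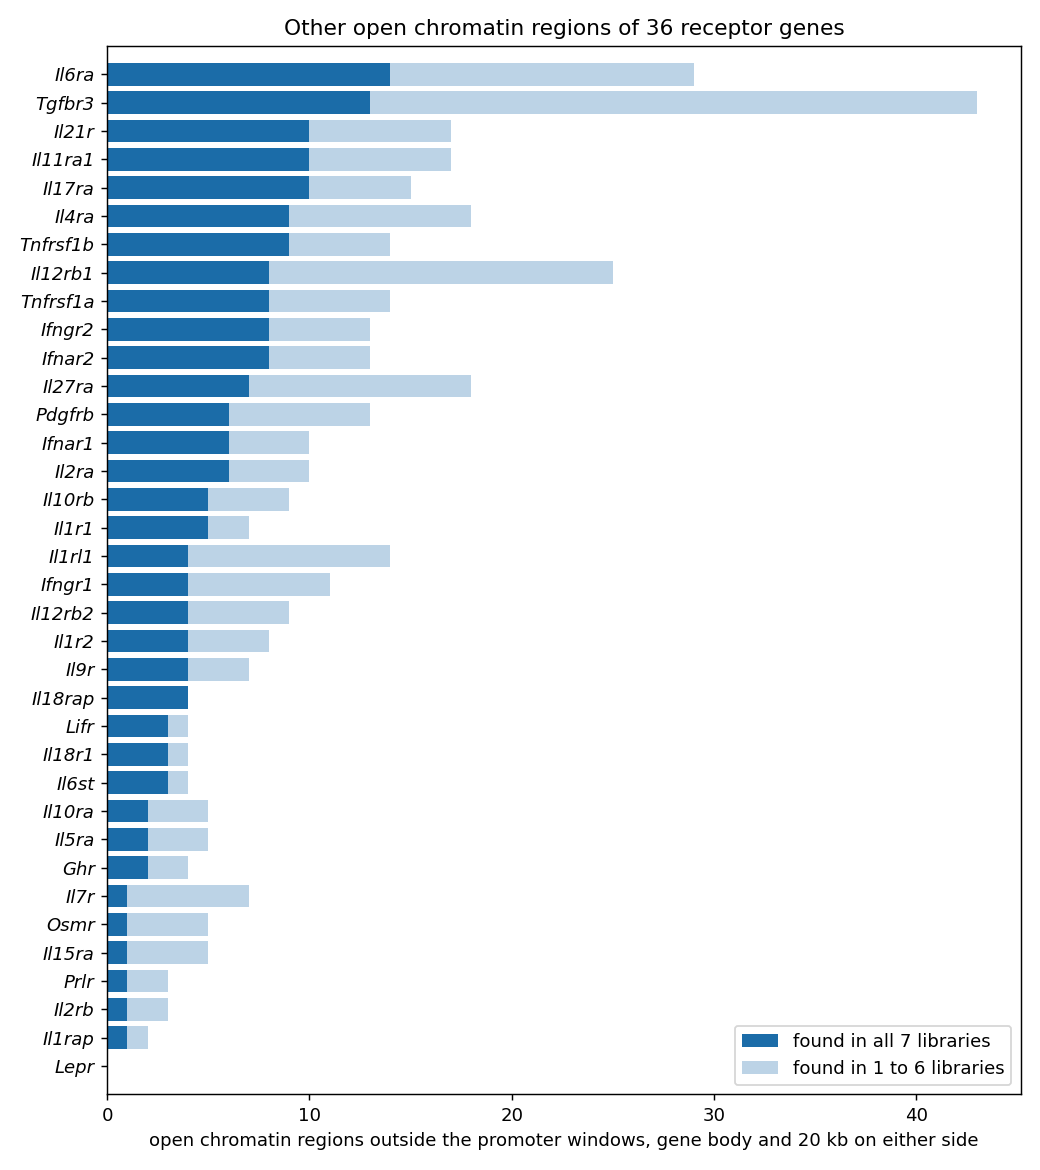
Number of OCRs outside the promoter windows (x axis) for the 36 genes, in the gene body and 20 kb on either side, ordered by the number found in all 7 libraries (dark bars), with those found in 1 to 6 libraries added (light bars). Il6ra has 14 shared OCRs, Tgfbr3 has the longest bar with 43 in all, and Lepr has 0.

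Of the 6 genes without a promoter peak, 5 had a shared OCR elsewhere in the window, the exception being Lepr. The same share over the 8370 protein-coding genes without a promoter peak is not given here. Whether 5 of 6 is ordinary can therefore not be said. Tnfrsf1b had 9 shared OCRs, the nearest 3.16 kb from its start at a fold enrichment of 3.74 ± 0.463, and Il2ra had 6, the nearest 5.24 kb away at 11.1 ± 2.82. Of the 6 at Il2ra, 1 is the promoter OCR of the adjacent Il15ra. Lifr had 3, the strongest in an intron of the neighbouring Egflam at 54.6 ± 10.4. Il2rb and Osmr had 1 each, 19.2 kb and 15.6 kb from the closest start, at 6.62 ± 1.75 and 4.61 ± 0.949. The lists hold no value where no peak was called, so a weaker signal at these promoters was not detectable here.

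At 13 of the 28 open genes (46.4%), another shared OCR of the window was stronger than the promoter itself, against 39.6% of 12272 open protein-coding genes. At 12 of them (42.9%, against 17.0%) such an OCR lay away from the starts of other genes, Il5ra being the exception. These shares were not tested. The 6 strongest shared OCRs that were not within 1 kb of any gene's start lay at 6 genes. At Il21r, an OCR over the last coding exon and 3′ UTR (chr7:125629803-125631441), 26.9 kb after the start, ranged from 77.4 through 129 to 170, with a mean of 127 ± 33.1, against 11.7 at the promoter. At Il10ra, an intergenic OCR 5.22 kb upstream (chr9:45273862-45275300) ranged from 69.9 through 102 to 120, with a mean of 100.9 ± 19.6, against 5.41 at the promoter. In both genes the lowest library of this OCR lay far above the highest value of the promoter. At Il17ra, an intronic OCR 3.59 kb after the start (chr6:120466104-120467494) had a mean of 111 ± 18.5, against 38.4.

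Ifngr2 had an intergenic OCR 12.4 kb upstream (chr16:91534478-91535216) with a mean of 85.5 ± 12.1, whose summits agreed to 1 bp between the 7 libraries. Pdgfrb had an intronic OCR at 83.5 ± 17.7, 9.41 kb after its start. In Tgfbr3 an intronic OCR (chr5:107235988-107237710) had a mean of 71.4 ± 18.2, 44.7 kb upstream of an internal noncoding start. The windows at the summits are shown for the other 5, without Pdgfrb, since these sites are strong and shared and lie away from starts. They are chr7:125630412-125630512 for Il21r, chr6:120466791-120466891 for Il17ra, chr9:45274320-45274420 for Il10ra, chr16:91534627-91534727 for Ifngr2 and chr5:107237039-107237139 for Tgfbr3.
Il21r: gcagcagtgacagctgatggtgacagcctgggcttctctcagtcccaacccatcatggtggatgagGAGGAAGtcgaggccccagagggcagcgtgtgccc
Il17ra: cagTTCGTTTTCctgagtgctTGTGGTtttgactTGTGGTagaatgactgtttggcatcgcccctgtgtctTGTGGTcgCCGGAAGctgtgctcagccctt
Il10ra: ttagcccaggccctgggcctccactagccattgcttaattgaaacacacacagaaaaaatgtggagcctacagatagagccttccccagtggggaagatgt
Ifngr2: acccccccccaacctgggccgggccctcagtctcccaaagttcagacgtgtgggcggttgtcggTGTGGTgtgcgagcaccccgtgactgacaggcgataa
Tgfbr3: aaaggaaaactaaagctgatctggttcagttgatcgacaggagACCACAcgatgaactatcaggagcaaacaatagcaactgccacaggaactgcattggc

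The Il17ra window held 3 copies of the RUNX word, 1 ETS word and 1 IRF word. The Ifngr2 and Tgfbr3 windows held 1 RUNX word each, the Il21r window 1 ETS word, and the Il10ra window none of the 8. Over all 178 shared OCRs of the set, 17.4% of such windows held the RUNX word, against 17.3% of 66979 shared OCRs in the genome, and 8.99% held the GATA word, against 8.60%. GAGGAAG was in 14.0% against 10.3%, CCGGAAG in 4.49% against 1.99%, and the IRF word in 4.49% (8 windows) against 2.43%. The STAT word was in 1.69% against 2.10%, the AP-1 word in 5.62% against 5.66% and the E-box in 0.562% against 2.03%. In the RefSeq promoters of 300 bases, which covered 28 of the 36 genes with 39 promoters, the STAT word was in 9 (23.1%) against 8.30% of 32851 promoters and the IRF word in 6 (15.4%) against 8.56%. The shares of the other words lay closer together, for GATA at 12.8% against 11.2%, for RUNX at 17.9% against 16.8%, for GAGGAAG at 15.4% against 13.6%, for CCGGAAG at 10.3% against 8.86%, for AP-1 at 7.69% against 5.20% and for the E-box at 5.13% against 7.15%. Il10ra, Il10rb, Il12rb1, Il17ra, Il27ra, Il2rb, Pdgfrb and Tgfbr3 had no entry. None of these shares was tested, and some genes have more than 1 of the 39 promoters, so the promoter matches are not counted per gene. A match is a word in the sequence and not evidence of binding.

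Several of the genes are neighbours. Ifnar2, Il10rb, Ifnar1 and Ifngr2 lie in this order on chromosome 16 within 232.8 kb (chr16:91352783-91585623, with 20 kb on either side), and this stretch held 32 OCRs found in all 7 libraries, promoters included, or 13.7 per 100 kb. The windows of all protein-coding genes, counted in the same way, had a median of 4.95 and a 90th percentile of 14.1 per 100 kb. The strongest apart from the Ifnar1 promoter was an OCR at 136 ± 16.9, 20.3 kb upstream of Ifnar1, at the start of the noncoding gene A930006K02Rik. On chromosome 7, Il4ra and Il21r shared a stretch of 121 kb with 14.0 shared OCRs per 100 kb. The stretch with Il1rl1, Il18r1 and Il18rap on chromosome 1 had 6.78 per 100 kb and that with Il2ra and Il15ra on chromosome 2 had 4.56.

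**Figure D5:**
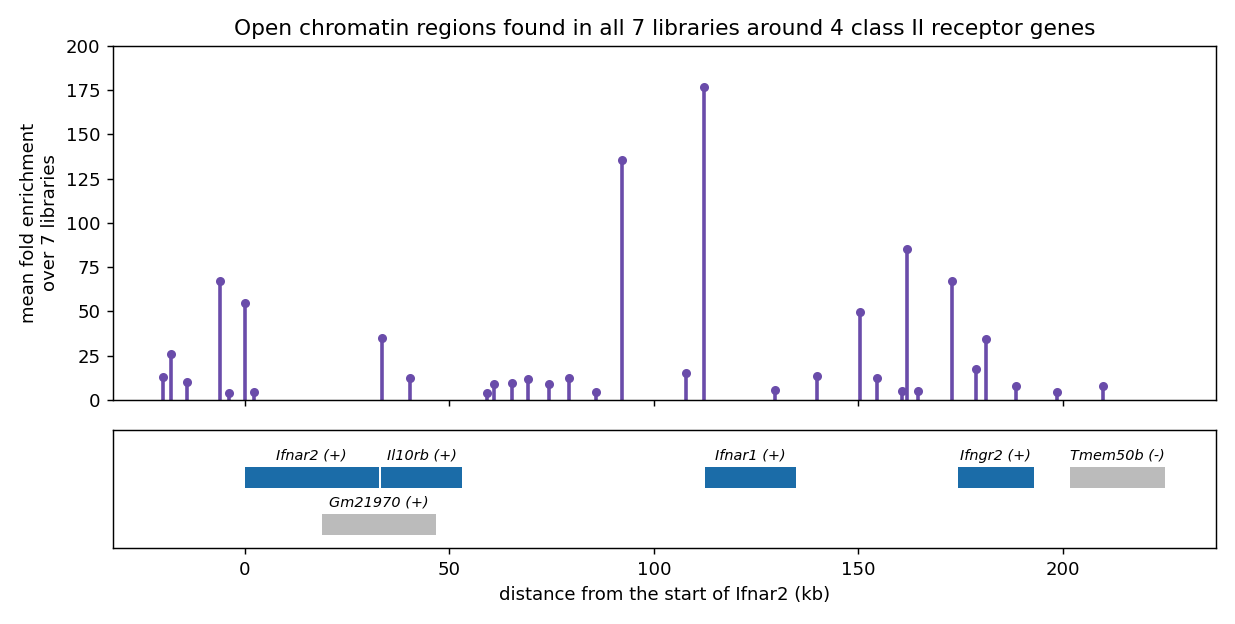
OCRs found in all 7 libraries around Ifnar2, Il10rb, Ifnar1 and Ifngr2, placed by distance from the start of Ifnar2 in kb (x axis) with their mean fold enrichment as height (y axis), above the protein-coding genes (members in blue, others in grey, strand in brackets). The 2 tallest are the Ifnar1 promoter at 177 and the OCR 20.3 kb upstream of it at 136.

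The rest of the pathway was read with the same rule. All 16 signalling partners had a promoter peak in all 7 libraries, with a median fold enrichment of 88.7, among them Tyk2, the kinase bound to IFNAR1, at 200.3 ± 40.1, Myd88 at 181 ± 32.1 and Stat4, which acts downstream of IL-12, at 20.9 ± 4.21. Of 26 other receptor chains, 13 were open in all 7 libraries, 1 in some and 12 in none. The IL-3 receptor chain Il3ra (117 ± 22.1) and Crlf2 (142 ± 28.5), which binds TSLP, were among the open ones, and the type III interferon chain Ifnlr1 and Il23r had no promoter peak. Of 28 ligands, 12 were open in all 7 libraries, 6 in some and 10 in none. Il1b (138 ± 28.4), Tnf (104 ± 25.6) and Lif (60.9 ± 13.9) had the highest of the open ligand promoters, and Ifng, Il5, Il9 and Il12b had none. The percentages for all protein-coding genes given above, 55.9% open in all 7 libraries and 38.2% in none, apply to these lists too.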

How the data were processed

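Bulk ATAC-seq peak lists of 7 HPC7 libraries were used. Per the submitters' notes and the study's methods, the authors used BWA for alignment to mm10 and MACS2 for peaks of every library on its own (versions and options are not given in the sources used here). The values the authors deposited are the fold enrichment of a peak (a ratio), its -log10 p and -log10 q, and a score that follows the latter. Nothing was normalized between libraries by the authors, and read depth is not in the lists, so precision is given as the SD over 7 libraries. Start sites came from GENCODE M21. Promoter peaks, merged OCRs and percentiles were computed in Python 3.11.15 with numpy 2.4.6 and pandas 2.3.3, and interval functions and tests were tested on simulated data. Pairs were compared by an exact sign-flip permutation test over 128 sign patterns, adjusted by Benjamini-Hochberg. The range over libraries was given for the 8 highest promoters, those with peaks in some libraries and the tested chain pairs. Among OCRs, the 6 strongest away from starts were named. The members and lists were chosen with earlier results of these data known. Alternatives were other windows and flanks, coding transcripts, summits, a -log10 q of at least 5, lists of 84593 peaks, reciprocal overlap and each library left out. Chromosome 18 sequence was not printed. A gene of the list of markers of other cell types is not reported here.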

Additional observations from a re-analysis of the deposited data

Results flagged for a closer look

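In 38 results with a value in each of the 7 libraries, the gap between the extreme library and its nearest neighbour was compared with the whole range (Dixon's ratio at its 95% level). The promoter of Il10rb was the single result past it, with a ratio of 0.632. HPC7-6 had a fold enrichment of 21.0, against 33.6 to 41.0 in the other 6 libraries. Chance alone flags about 5% of such groups, and HPC7-6 was the lowest library at 26 of 28 open promoters.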

How the results depend on the processing

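With any 1 library left out, the genes open in all remaining libraries numbered 28 each time, those without a promoter peak 6, the shared OCRs away from the promoters 178 to 191, and the chain pairs called 9 (adjusted p = 0.0312, exact permutation test). For the neighbouring pairs, 17 of 27 would have to reach the smallest p of 6 libraries, so that the count of 0 (4 to 7 at an unadjusted p under 0.05) says nothing about stability. Other windows, start sites, thresholds and list lengths gave 27 to 29 genes open in all 7 libraries and 6 or 7 without a peak. Pdgfrb dropped out of the former with summits in the window, Il10ra with a -log10 q of at least 5 and Il1r1 with lists of equal length. Il12rb2 joined the latter with lists of equal length. The count of 178 shared OCRs was 79 with the gene body alone and 282 with a flank of 50 kb, as the smaller and larger windows imply, and between 132 and 160 under the other alternatives. The share of genes with a low CpG ratio that were open, 77.3%, lay between 70.8% and 88.2% with other limits or the outermost start, which were chosen after seeing the data, against 19.9% to 40.0% of protein-coding genes. Peak lists hold no value below the caller's threshold, so a promoter without a peak in a library has no value there.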
